A study of Homo sapiens with 22 samples.

Results

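The genes described are 60 that act in mitosis and on the spindle, out of 11963 genes with a probe set of their own on the array. They are 10 cyclins and partners of CDK1, 8 mitotic kinases and survivin, 9 genes of the spindle checkpoint and anaphase onset, 6 of the centromere and kinetochore, 8 kinesins, 10 other spindle and cytokinesis genes, 8 of condensin and chromosome structure, and the transcription factor FOXM1. Each was read from the probe set that carries its symbol alone in the platform annotation, and where there were several, from the one with the highest mean over all arrays. All 60 were measured, and no filter on low values was applied.

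RNA came from 6 human B-cell lymphoma lines. Daudi, Namalwa and Raji are Burkitt lymphoma lines; HT, SU-DHL4 and SU-DHL6 stem from diffuse large B-cell lymphomas (DLBCL). Untreated cells of every line were set against cells given 5-aza-dC, which traps DNA methyltransferases, together with trichostatin A (TSA), which inhibits histone deacetylases. 5-aza-dC was given for 6 days, at 5 µM by the sample titles and at 3 µM by the treatment protocol, and TSA at 625 nM for the last 24 h. The 22 Affymetrix HG-U133A arrays are 2 per group, except for HT with 1 untreated and 1 treated. No array of a single drug was analysed here. The lines are established tumour lines, so none of them stands for a resting or a normal B cell. The study asked, by its title, what such treatment does to the expression profile of B-cell lines in relation to classical Hodgkin lymphoma.

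Cells enter mitosis when CDK1, bound to cyclin B or cyclin A, is freed of inhibitory phosphate by the CDC25 phosphatases. Kinesins and their partners then build the spindle, condensin compacts the chromosomes, and the spindle checkpoint holds back the ubiquitin ligase APC/C and its activator CDC20 until every kinetochore is attached. Most of these genes are transcribed mainly in G2 and M phase, under the DREAM and MuvB complexes with B-MYB and FOXM1, which act through the CHR element, often beside CCAAT boxes bound by NF-Y, and their transcripts are therefore read widely as a sign of dividing cells.

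The promoters of 4 members are shown. CDC20, NCAPG and DLGAP5 had the most negative differences when SU-DHL4 and SU-DHL6 were set against Raji, and CDC25A had the smallest SD of its response over the 6 lines. The sequences are from RefSeq on GRCh38.p14, 250 bases before to 50 after the annotated start of the gene, 5′ to 3′ on the strand of the gene. Capitals mark matches on either strand to the CHR element (TTTGAA or TTCGAA), to CCAAT and to E2F sites (TTTGGCG or TTTCGCG). The windows are chr1:43358731-43359030 on the plus strand for CDC20, chr4:17810729-17811028 on the plus strand for NCAPG, chr14:55191536-55191835 on the minus strand for DLGAP5, and chr3:48188368-48188667 on the minus strand for CDC25A.
CDC20: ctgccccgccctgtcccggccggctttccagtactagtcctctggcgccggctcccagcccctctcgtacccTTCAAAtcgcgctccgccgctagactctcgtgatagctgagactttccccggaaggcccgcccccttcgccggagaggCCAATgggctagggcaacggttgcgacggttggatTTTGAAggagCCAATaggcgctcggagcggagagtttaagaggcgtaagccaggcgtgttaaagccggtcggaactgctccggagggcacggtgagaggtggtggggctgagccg
NCAPG: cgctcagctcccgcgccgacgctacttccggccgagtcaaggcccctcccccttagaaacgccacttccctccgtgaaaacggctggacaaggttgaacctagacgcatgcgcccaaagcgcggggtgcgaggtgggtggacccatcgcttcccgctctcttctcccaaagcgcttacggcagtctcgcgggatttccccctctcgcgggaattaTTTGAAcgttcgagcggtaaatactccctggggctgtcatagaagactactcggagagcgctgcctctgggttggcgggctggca
DLGAP5: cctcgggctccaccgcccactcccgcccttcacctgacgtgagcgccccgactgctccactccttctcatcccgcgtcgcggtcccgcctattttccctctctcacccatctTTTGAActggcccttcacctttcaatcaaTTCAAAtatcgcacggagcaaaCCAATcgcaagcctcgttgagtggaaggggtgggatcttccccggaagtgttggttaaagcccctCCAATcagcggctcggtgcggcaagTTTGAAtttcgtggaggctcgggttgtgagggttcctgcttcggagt
CDC25A: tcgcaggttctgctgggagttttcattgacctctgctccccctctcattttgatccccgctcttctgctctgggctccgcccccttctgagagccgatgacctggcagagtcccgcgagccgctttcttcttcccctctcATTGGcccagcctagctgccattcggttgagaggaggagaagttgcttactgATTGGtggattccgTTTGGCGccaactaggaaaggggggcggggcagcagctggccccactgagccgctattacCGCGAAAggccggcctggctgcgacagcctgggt

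The CDC20 window held CHR matches that began 178 and 65 bases before the start and CCAAT matches 100 and 55 bases before it. NCAPG held 1 CHR match, 35 bases before the start, and neither other motif. DLGAP5 held CHR matches 138 and 109 bases before the start and another 3 bases after it, with CCAAT matches 87 and 22 bases before it. CDC25A held no CHR match in this window, but E2F matches 44 bases before and 16 bases after the start, and CCAAT matches 110 and 58 bases before it. These are matches of letters and say nothing on whether a factor was bound in these cells.

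Over the members, 49 had promoter windows in the RefSeq table, 66 windows in all, since a gene can have several starts. AURKA, BIRC5, BUB3, CENPM, FOXM1, HMGB2, PBK, RACGAP1, TPX2, TTK and UBE2C had none there. A CHR match lay in 40 of the 66 windows (60.6%), against 16.4% of all 35116 windows and 13.2% of the 14058 windows of genes on the array. CCAAT was in 66.7% of the members' windows and 34.6% of all, and an E2F match in 13.6% and 3.19%. Both CHR and CCAAT stood in 47.0% of the members' windows and 6.38% of all. The CHR matches of members lay near the start: 36 of 52 (69.2%) began within 50 bases of it, against 27.3% of the 6754 matches in all windows. Windows of 1 gene overlap each other, so these shares were not tested.

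**Figure D1:**
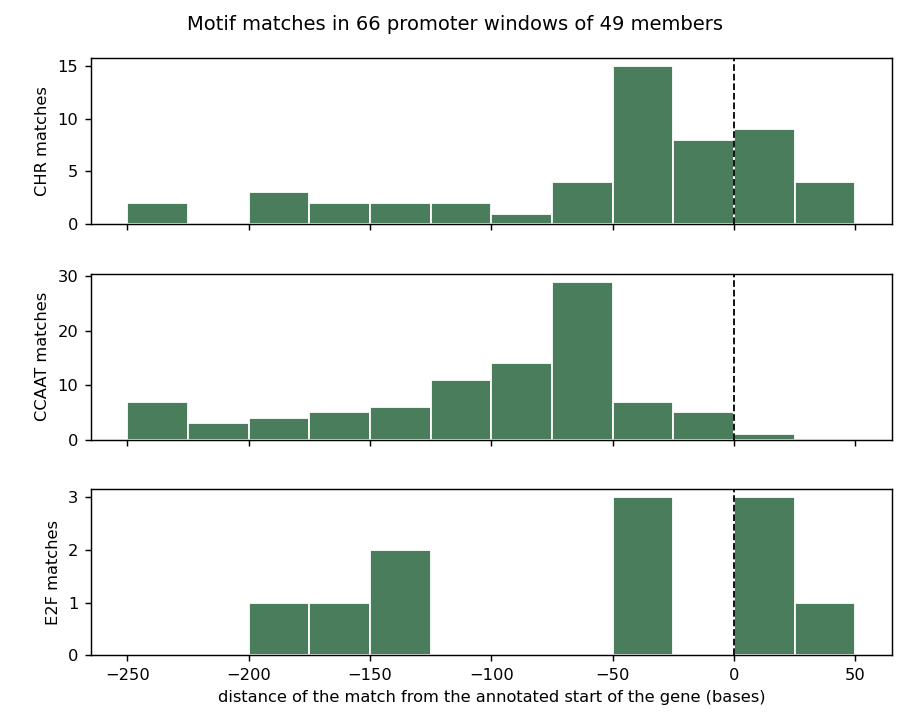
Number of motif matches (y axis) by the distance of the match from the annotated start of the gene in bases (x axis, bins of 25 bases, dashed line at the start), for CHR, CCAAT and E2F in the 66 windows of 49 members. CHR matches gather close to the start, 36 of 52 within 50 bases, and CCAAT matches lie mostly before it.

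The arrays were first compared with each other. The median over the 60 members was 9.03 to 9.50 on 9 of the 11 untreated arrays, 8.93 on the untreated HT array and 8.49 on the first untreated Raji array; these and all levels below are log2 values after robust multi-array averaging (RMA). The duplicate of that Raji array stood at 9.25. Between these 2 arrays 56 of 60 members were higher on the second, by a median of 0.93, from -0.48 for ZWINT to 1.72 for NEK2, while over all genes the median was 0.00 with an SD of 0.36. In the other 9 groups with duplicates the members' median moved by at most 0.31 between arrays. Counts, medians and correlations for Raji are therefore given with and without the first untreated array. On the second treated SU-DHL6 array the 3′ control probe sets of ACTB exceeded the 5′ ones by 2.08, while no untreated array was above 0.07. The untreated array at 0.07 was the second of Raji, whose duplicate read -0.75. For the control probe sets of GAPDH it read 0.64, the highest of the untreated arrays. Results without the first untreated Raji array rest on this array alone for untreated Raji. The first treated SU-DHL6 array read 0.47 and the treated SU-DHL4 arrays 0.07 and 0.28, against -0.76 to -0.29 on untreated arrays of these lines. Treated Raji arrays read -0.47 and -0.57, so leaving out 1 SU-DHL6 array does not remove this difference between lines. Values of the second treated SU-DHL6 array and of both treated SU-DHL4 arrays had interquartile ranges of 1.96 to 2.03, against 2.32 to 2.59 on untreated arrays. The part of RNA quality in the results on the SU-DHL lines, on Raji and in the contrast between them was not tested. The 5 B-cell markers analysed here read 9.26 to 12.51 on untreated arrays. All 5 fell with treatment (treated minus untreated from -1.01 for CD22 to -3.16 for CD79B), so that their median per array went from 10.14 to 10.73 untreated to 7.08 to 9.14 treated. Markers of T cells read 6.38 to 7.87 on untreated arrays and 6.50 to 8.78 on treated ones, of epithelium 4.22 to 6.69 and 4.36 to 7.80, and of myeloid cells 4.07 to 6.98 and 4.33 to 8.82; among fibroblast markers DCN reached 10.93 in untreated SU-DHL4 and the other 3 stayed at or below 8.59. Of the T-cell markers 3 of 4 rose, CD3D by 0.41, CD3E by 0.40 and CD2 by 0.45, of the epithelial ones 1 of 4, KRT18 by 0.64, and of the myeloid ones 1 of 3, CSF1R by 1.17 (limma adjusted p = 0.0092, 0.0194, 0.0476, 0.0242 and 0.00258); no fibroblast marker of 4 passed. Their part in the results was not tested.

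Most members read lower on treated arrays, and the size of the fall differed widely between lines. Over the 6 lines 43 of the 60 members fell and 0 rose, and of all genes tested 18.3% were called lower and 18.7% higher. Calls are from limma, a linear model that borrows strength across genes, at a Benjamini-Hochberg adjusted p under 0.05 over all 11963 genes, with the 6 lines as units. At an unadjusted p under 0.05, 51 members were lower and 0 higher, against 21.4% and 28.4% of all genes. The median member difference, treated minus untreated, was -1.21, against 0.12 over all genes, and all 60 means lay below 0. The other 17 members did not pass: CCNB2, CCNF, CDC25B, CDC25C, CKS2, NEK2, BUB1, CDC20, PTTG1, CENPA, CENPE, CENPF, KIF14, KIF2C, NUSAP1, DLGAP5 and RACGAP1. On bulk arrays, fewer dividing cells and less RNA of these genes per cell cannot be told apart. The count was 28 without Namalwa and 24 without SU-DHL6, and 35 without the second untreated Raji array or 47 without the first; with the 3 Burkitt lines alone it was 4, and with the 3 DLBCL lines alone 26. A fit on fewer lines has fewer units, and shares of all genes are not given for these fits. These counts therefore do not compare members with other genes. In the authors' deposited table, which tests the treatment over all arrays, 54 of these 60 probe sets had an adjusted p under 0.05 with a lower treated value, as had 22.3% of all 22283 probe sets there.

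**Figure D2:**
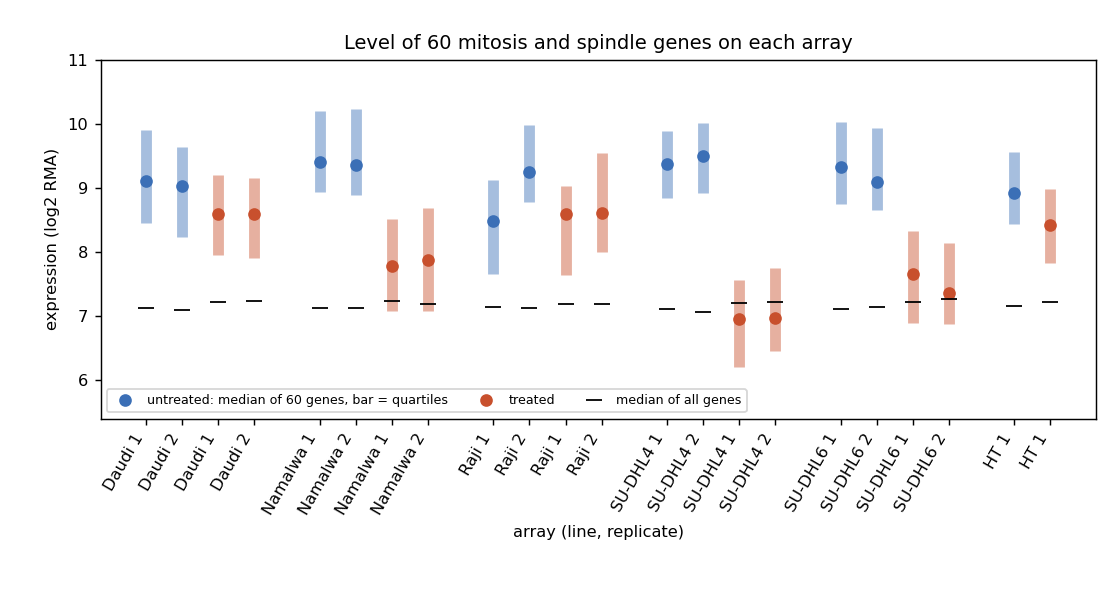
Log2 RMA expression (y axis) of the 60 members on each of 22 arrays (x axis, line and replicate): points are the members' median, thick bars their quartiles, blue untreated and red treated, and black dashes the median of all genes. Treated medians run from 6.96 in SU-DHL4 to 8.61 in Raji, and the first untreated Raji array, at 8.49, lies below both treated Raji arrays.

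Cyclins, CDK1, its phosphatases and its CKS subunits fell in 5 of 10 cases over the 6 lines, with a median of -1.24. CCNA2, the cyclin of S phase and early mitosis, read 9.47 and 9.39 in Daudi, 10.21 and 9.82 in Namalwa, 8.44 and 9.69 in Raji, 10.02 and 10.50 in SU-DHL4, 8.87 and 8.75 in SU-DHL6 and 9.42 in HT untreated. On treated arrays it read 7.77 and 7.30 in Daudi, 7.36 and 6.78 in Namalwa, 7.46 and 8.06 in Raji, 6.70 and 7.24 in SU-DHL4, 6.31 and 6.24 in SU-DHL6 and 7.59 in HT. Every treated array lay below every untreated one, whatever the line. The difference was -2.30 ± 0.75 (SD over 6 lines; limma adjusted p = 0.000791), the second largest fall of the 60. CCNB1, the cyclin that drives entry into mitosis, read 9.37 and 9.09 in Daudi, 10.15 and 10.40 in Namalwa, 7.93 and 9.31 in Raji, 9.94 and 10.002 in SU-DHL4, 10.10 and 9.57 in SU-DHL6 and 9.33 in HT untreated. Its treated values were 8.13 and 7.91 in Daudi, 7.82 and 8.19 in Namalwa, 8.59 and 8.73 in Raji, 6.78 and 6.14 in SU-DHL4, 7.55 and 7.33 in SU-DHL6 and 8.64 in HT. The groups were apart in 5 lines, and in Raji both treated arrays lay between the untreated ones. The difference was -1.67 ± 1.29 (SD, 6 lines; limma adjusted p = 0.02). CDK1, the kinase they activate, read 10.20 and 10.23 in Daudi, 10.75 and 10.76 in Namalwa, 9.34 and 10.42 in Raji, 10.42 and 10.46 in SU-DHL4, 10.30 and 10.07 in SU-DHL6 and 11.21 in HT untreated. Treated, it read 9.01 and 9.14 in Daudi, 8.38 and 7.52 in Namalwa, 8.33 and 9.94 in Raji, 7.27 and 6.50 in SU-DHL4, 7.99 and 7.46 in SU-DHL6 and 10.55 in HT. Again only Raji overlapped, and treated SU-DHL4 was lowest. CDK1 fell by 1.89 ± 1.21 (limma adjusted p = 0.00948).

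CDC25A, the phosphatase that also acts at the start of S phase, had the most even response of all members. It read 9.11 and 9.11 in Daudi, 8.75 and 8.68 in Namalwa, 9.28 and 9.001 in Raji, 9.15 and 8.93 in SU-DHL4, 8.76 and 8.58 in SU-DHL6 and 9.06 in HT untreated. With treatment it read 7.97 and 7.58 in Daudi, 7.72 and 7.45 in Namalwa, 7.82 and 8.37 in Raji, 7.41 and 7.71 in SU-DHL4, 6.84 and 7.32 in SU-DHL6 and 7.96 in HT. No treated array reached any untreated one, and the difference was -1.28 ± 0.22 (limma adjusted p = 0.000355), from -1.05 in Raji to -1.59 in SU-DHL6. The other CDC25A probe set, of mean level 6.98, averaged only -0.41 and was also called lower (limma adjusted p = 0.0481). CKS1B, a small subunit of CDK complexes, fell by 1.53 ± 0.72 (adjusted p = 0.00313). Its relative CKS2 averaged -1.20 ± 1.32 and did not pass (adjusted p = 0.0638), with -3.62 in SU-DHL4 and -0.01 in Raji, or -0.17 there without the first untreated array. CCNB2, the second B-type cyclin, averaged -0.89 ± 1.17, the phosphatase CDC25B -0.47 ± 0.47 and CCNF, a cyclin that serves a ubiquitin ligase, -0.39 ± 0.40, and none of them passed. CDC25C, the phosphatase of mitotic entry, averaged -0.13 ± 0.57 and was lower in 3 lines and higher in 3, or lower in 4 without the first untreated Raji array.

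The mitotic kinases fell in 7 of 8 cases, survivin included, with a median of -0.99. PBK, a kinase of dividing cells, had the largest fall of all members. It read 9.40 and 9.12 in Daudi, 9.26 and 9.20 in Namalwa, 7.85 and 8.70 in Raji, 9.82 and 10.003 in SU-DHL4, 8.25 and 8.77 in SU-DHL6 and 9.44 in HT untreated. Its treated levels were 7.80 and 7.94 in Daudi, 6.06 and 5.996 in Namalwa, 6.30 and 7.59 in Raji, 4.84 and 5.04 in SU-DHL4, 4.94 and 5.17 in SU-DHL6 and 7.67 in HT. In each line the treated arrays lay below the untreated ones, and in both SU-DHL lines they were near 5. The difference was -2.69 ± 1.45 (limma adjusted p = 0.00479). AURKB, the kinase of the chromosomal passenger complex, read 9.30 and 9.20 in Daudi, 8.99 and 9.11 in Namalwa, 8.68 and 9.37 in Raji, 9.58 and 9.40 in SU-DHL4, 9.75 and 9.61 in SU-DHL6 and 8.88 in HT untreated. Treated AURKB stood at 8.10 and 7.90 in Daudi, 6.87 and 6.43 in Namalwa, 8.41 and 8.64 in Raji, 6.85 and 6.15 in SU-DHL4, 7.29 and 7.08 in SU-DHL6 and 7.88 in HT. All 11 treated arrays were below all 11 untreated ones, by the narrowest margin in Raji. The difference was -1.77 ± 0.99 (limma adjusted p = 0.00574).

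Among the other kinases, PLK1, which acts from centrosome maturation to cytokinesis, fell by 1.5 ± 0.96 and PLK4, which starts centriole duplication, by 1.09 ± 0.44. AURKA, the kinase of spindle poles, fell by 0.75 ± 0.55 (limma adjusted p = 0.0201). Among its 3 probe sets, another was also called lower, at -1.50, and a dimmer one, of mean level 5.75, lay at 0.10 and did not pass. BIRC5, which encodes survivin of the passenger complex, fell by 0.86 ± 0.66 and MELK, a kinase of dividing cells, fell by 0.89 ± 0.87. NEK2, a kinase that splits centrosomes, averaged -0.39 ± 1.13 without passing (adjusted p = 0.409), with -2.03 in SU-DHL4 and 0.78 in Daudi.

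Of 9 genes of the spindle checkpoint and anaphase onset 6 fell, and the median was -1.20. MAD2L1, the checkpoint protein that binds and holds CDC20, read 9.97 and 9.55 in Daudi, 9.63 and 9.80 in Namalwa, 8.78 and 9.48 in Raji, 9.67 and 9.66 in SU-DHL4, 8.46 and 8.43 in SU-DHL6 and 9.29 in HT untreated. After treatment it read 8.04 and 8.74 in Daudi, 6.26 and 7.57 in Namalwa, 7.79 and 7.88 in Raji, 5.86 and 5.88 in SU-DHL4, 5.97 and 5.64 in SU-DHL6 and 8.08 in HT. Treated arrays were lower in each line, Raji included, and the treated Namalwa arrays differed from each other more than those of any other line. MAD2L1 fell by 2.18 ± 1.06 (limma adjusted p = 0.00329). BUB1B, which encodes BubR1, read 10.27 and 9.95 in Daudi, 10.57 and 10.38 in Namalwa, 9.36 and 10.03 in Raji, 10.50 and 10.65 in SU-DHL4, 10.89 and 10.35 in SU-DHL6 and 9.89 in HT untreated. Treated BUB1B was at 9.10 and 9.23 in Daudi, 7.85 and 7.86 in Namalwa, 8.87 and 9.53 in Raji, 5.71 and 6.48 in SU-DHL4, 8.36 and 7.90 in SU-DHL6 and 8.85 in HT. The Raji groups overlapped, and the treated SU-DHL4 arrays stood lowest. BUB1B fell by 2.01 ± 1.49 (limma adjusted p = 0.0167).

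CDC20, the APC/C activator that the checkpoint restrains, had the widest spread of all members. It read 9.47 and 9.17 in Daudi, 9.98 and 10.18 in Namalwa, 8.67 and 9.66 in Raji, 9.99 and 9.64 in SU-DHL4, 10.02 and 9.40 in SU-DHL6 and 9.40 in HT untreated. Treated, it read 9.19 and 8.66 in Daudi, 9.37 and 9.87 in Namalwa, 10.60 and 10.001 in Raji, 5.80 and 6.21 in SU-DHL4, 7.34 and 7.31 in SU-DHL6 and 9.76 in HT. Both treated SU-DHL lines were far below every untreated array, Daudi overlapped, and in Raji and HT the treated arrays were the higher ones. The mean was -0.93 ± 1.83 and did not pass (limma adjusted p = 0.239). BUB3, a partner of both BUB kinases, fell by 1.45 ± 0.80, UBE2C, the ubiquitin-conjugating enzyme of the APC/C, by 1.72 ± 0.76, TTK, the checkpoint kinase MPS1, by 1.14 ± 0.98 and ESPL1, the separase that cuts cohesin, by 0.86 ± 0.75. BUB1 averaged -1.20 ± 1.41 (adjusted p = 0.0767), at -3.19 in SU-DHL4 but 0.07 in Raji, or -0.16 without the first untreated array. PTTG1, the securin that inhibits separase, averaged -0.06 ± 0.71 (adjusted p = 0.849), from 0.65 in Daudi to -0.95 in SU-DHL4, where it was called lower. It has near-identical paralogs, and its probe set is of a kind that may cross-hybridise, as are those of BIRC5, BUB3, CENPA and FOXM1.

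Of the 6 centromere and kinetochore genes 3 fell, with a median of -1.21. NDC80, which ties kinetochores to microtubules, read 7.65 and 6.97 in Daudi, 8.07 and 7.78 in Namalwa, 6.51 and 8.08 in Raji, 8.26 and 8.68 in SU-DHL4, 7.23 and 8.01 in SU-DHL6 and 7.62 in HT untreated. Its treated values were 6.30 and 6.59 in Daudi, 5.26 and 5.19 in Namalwa, 6.41 and 7.06 in Raji, 4.77 and 4.78 in SU-DHL4, 5.01 and 4.69 in SU-DHL6 and 6.27 in HT. Raji overlapped, while both SU-DHL lines had their treated arrays at or near 5. NDC80 fell by 1.99 ± 1.25 (limma adjusted p = 0.00881). CENPM, a protein of the constitutive centromere network, read 8.83 and 8.92 in Daudi, 9.16 and 9.48 in Namalwa, 9.10 and 8.82 in Raji, 9.30 and 9.38 in SU-DHL4, 9.22 and 9.12 in SU-DHL6 and 8.92 in HT untreated. Treated CENPM read 8.05 and 7.98 in Daudi, 7.48 and 7.43 in Namalwa, 7.23 and 8.11 in Raji, 6.99 and 7.83 in SU-DHL4, 7.76 and 7.38 in SU-DHL6 and 7.57 in HT. No treated array reached an untreated one, and the 6 lines ranged from -0.87 in Daudi to -1.93 in SU-DHL4. The mean difference was -1.49 ± 0.40 (limma adjusted p = 0.000554). ZWINT, a partner of the outer kinetochore, fell by 1.32 ± 0.87. CENPA, the histone variant of centromeres, averaged -0.40 ± 0.68, CENPE, a kinetochore motor, -0.06 ± 0.74 and CENPF, of the outer kinetochore, -1.10 ± 1.17, none of which passed. One of the 2 other CENPF probe sets was called lower, and both lay between -0.84 and 0.04.

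Of the 8 kinesins 6 fell, and their median was -1.09. KIF11, the motor that pushes spindle poles apart, read 9.12 and 8.97 in Daudi, 9.37 and 9.36 in Namalwa, 7.55 and 8.78 in Raji, 9.39 and 9.51 in SU-DHL4, 9.38 and 9.24 in SU-DHL6 and 8.92 in HT untreated. Treated levels were 7.69 and 7.75 in Daudi, 5.93 and 6.21 in Namalwa, 7.50 and 7.77 in Raji, 6.11 and 5.39 in SU-DHL4, 6.61 and 5.92 in SU-DHL6 and 7.77 in HT. The first untreated Raji array lay between the treated ones, and the other lines were apart. KIF11 fell by 2.17 ± 1.33 (limma adjusted p = 0.00794). KIF20A, a motor of cytokinesis, read 8.38 and 8.03 in Daudi, 9.03 and 9.03 in Namalwa, 7.35 and 9.003 in Raji, 9.10 and 9.06 in SU-DHL4, 8.81 and 8.63 in SU-DHL6 and 8.01 in HT untreated. Treated KIF20A read 7.84 and 7.52 in Daudi, 6.82 and 7.19 in Namalwa, 8.31 and 8.25 in Raji, 5.91 and 6.49 in SU-DHL4, 6.50 and 6.89 in SU-DHL6 and 7.28 in HT. In Raji the treated arrays lay between the untreated ones. KIF20A fell by 1.34 ± 1.14 (limma adjusted p = 0.0277). KIF15, a spindle motor that backs up KIF11, fell by 1.23 ± 0.70, KIF18B, which shortens astral microtubules, by 1.22 ± 0.72, the chromokinesin KIF4A by 0.96 ± 0.70 and the midzone motor KIF23 by 0.88 ± 0.36, the last from untreated levels of at most 6.62. KIF2C, which takes microtubules apart at kinetochores, averaged -0.85 ± 0.99 without passing (adjusted p = 0.0767). KIF14, of the midbody, averaged -0.11 ± 1.08 and was higher in Daudi, Raji and HT.

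Other spindle and cytokinesis genes fell in 7 of 10 cases, with a median of -1.23. DLGAP5, which stabilises microtubules at kinetochores, read 8.95 and 8.62 in Daudi, 8.29 and 8.52 in Namalwa, 7.41 and 8.99 in Raji, 9.24 and 9.33 in SU-DHL4, 9.41 and 9.09 in SU-DHL6 and 8.79 in HT untreated. With treatment it read 8.57 and 8.94 in Daudi, 6.15 and 6.53 in Namalwa, 8.52 and 8.57 in Raji, 5.56 and 5.41 in SU-DHL4, 6.81 and 6.45 in SU-DHL6 and 8.54 in HT. Namalwa and both SU-DHL lines were far apart, HT differed by -0.25, and Daudi and Raji overlapped. The mean was -1.41 ± 1.67, which did not pass (limma adjusted p = 0.0776). HMMR, a spindle protein that also binds hyaluronan, read 9.31 and 9.01 in Daudi, 9.67 and 9.64 in Namalwa, 8.77 and 9.97 in Raji, 9.46 and 9.41 in SU-DHL4, 9.34 and 8.92 in SU-DHL6 and 9.65 in HT untreated. Treated HMMR read 8.90 and 8.52 in Daudi, 8.32 and 8.32 in Namalwa, 9.24 and 9.42 in Raji, 6.08 and 6.71 in SU-DHL4, 7.59 and 7.16 in SU-DHL6 and 8.53 in HT. Only Raji overlapped. HMMR fell by 1.29 ± 1.06 (limma adjusted p = 0.0253). TPX2, which activates AURKA on the spindle, fell by 1.25 ± 0.78, PRC1, which bundles midzone microtubules, by 1.25 ± 1.10, TACC3, which cross-links spindle fibres, by 1.26 ± 0.93, SPAG5, the spindle protein astrin, by 0.87 ± 0.74, ECT2, the exchange factor that sets the cleavage furrow, by 1.20 ± 1.11 and STMN1, which destabilises microtubules, by 1.11 ± 0.51. NUSAP1, which bundles spindle microtubules, averaged -0.62 ± 1.30 and RACGAP1, the partner of ECT2, -0.79 ± 0.95, and neither passed.

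All 8 genes of condensin, chromosome structure and proliferation fell, with a median of -1.47. HMGB2, a chromatin protein of dividing cells, read 11.20 and 10.82 in Daudi, 11.10 and 10.87 in Namalwa, 10.02 and 10.96 in Raji, 11.05 and 11.07 in SU-DHL4, 10.73 and 10.91 in SU-DHL6 and 10.77 in HT untreated. Treated, it read 9.38 and 8.90 in Daudi, 9.002 and 9.02 in Namalwa, 9.54 and 9.96 in Raji, 6.45 and 6.11 in SU-DHL4, 9.17 and 8.01 in SU-DHL6 and 9.31 in HT. No treated array reached an untreated one, and treated SU-DHL4 stood apart at the low end. HMGB2 fell by 2.18 ± 1.38 (limma adjusted p = 0.00916). SMC2, a core subunit of condensin, read 8.98 and 8.997 in Daudi, 9.59 and 9.35 in Namalwa, 8.09 and 8.86 in Raji, 9.45 and 9.88 in SU-DHL4, 9.34 and 9.16 in SU-DHL6 and 9.36 in HT untreated. Its treated values were 8.29 and 8.83 in Daudi, 7.47 and 7.47 in Namalwa, 7.62 and 8.01 in Raji, 5.75 and 6.42 in SU-DHL4, 7.51 and 6.18 in SU-DHL6 and 8.37 in HT. Each line was lower after treatment, Daudi and Raji least. SMC2 fell by 1.68 ± 1.21 (limma adjusted p = 0.0155).

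NCAPG, a subunit of condensin I, read 8.41 and 7.72 in Daudi, 9.15 and 9.11 in Namalwa, 7.13 and 7.65 in Raji, 8.77 and 8.68 in SU-DHL4, 8.61 and 8.44 in SU-DHL6 and 7.43 in HT untreated. Treated NCAPG read 7.70 and 7.58 in Daudi, 6.17 and 6.53 in Namalwa, 8.05 and 7.62 in Raji, 5.51 and 5.26 in SU-DHL4, 5.80 and 5.49 in SU-DHL6 and 6.64 in HT. Namalwa and both SU-DHL lines were far apart, and in Raji the second untreated array lay between the treated ones. NCAPG fell by 1.63 ± 1.57 (limma adjusted p = 0.0417). MKI67, which encodes the proliferation marker Ki-67, read 9.23 and 9.06 in Daudi, 9.98 and 9.87 in Namalwa, 8.74 and 9.31 in Raji, 9.74 and 9.80 in SU-DHL4, 10.001 and 9.60 in SU-DHL6 and 8.93 in HT untreated. After treatment it read 8.62 and 8.16 in Daudi, 8.23 and 7.88 in Namalwa, 8.82 and 9.12 in Raji, 7.69 and 7.65 in SU-DHL4, 7.71 and 7.72 in SU-DHL6 and 8.73 in HT. Raji overlapped and HT differed by -0.20. The difference was -1.18 ± 0.95 (limma adjusted p = 0.0245), and its other 3 probe sets were also called lower. NCAPH and NCAPD2, 2 further condensin I subunits, fell by 1.06 ± 0.53 and 1.06 ± 0.59. SMC4, the partner of SMC2, fell by 1.57 ± 1.27. Of its other probe sets 1 was also called lower, at -1.83, and 1, of mean level 5.09, lay at 0.04. TOP2A, the topoisomerase that untangles sister chromatids, fell by 1.38 ± 1.37. When the adjustment ran over all probe sets with 1 symbol, neither TOP2A probe set passed, at -1.38 and -1.55 (limma adjusted p = 0.052 and 0.0594).

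FOXM1, the transcription factor of the G2 and M genes, read 9.11 and 9.07 in Daudi, 9.24 and 9.01 in Namalwa, 8.39 and 9.50 in Raji, 9.83 and 9.74 in SU-DHL4, 9.05 and 9.15 in SU-DHL6 and 8.53 in HT untreated. Treated FOXM1 read 7.88 and 7.71 in Daudi, 7.55 and 6.98 in Namalwa, 7.09 and 8.43 in Raji, 7.38 and 7.33 in SU-DHL4, 6.90 and 7.24 in SU-DHL6 and 7.67 in HT. The Raji groups overlapped narrowly, and the other lines were apart. FOXM1 fell by 1.61 ± 0.59 (limma adjusted p = 0.00135) and was called lower in each line but HT.

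**Figure D3:**
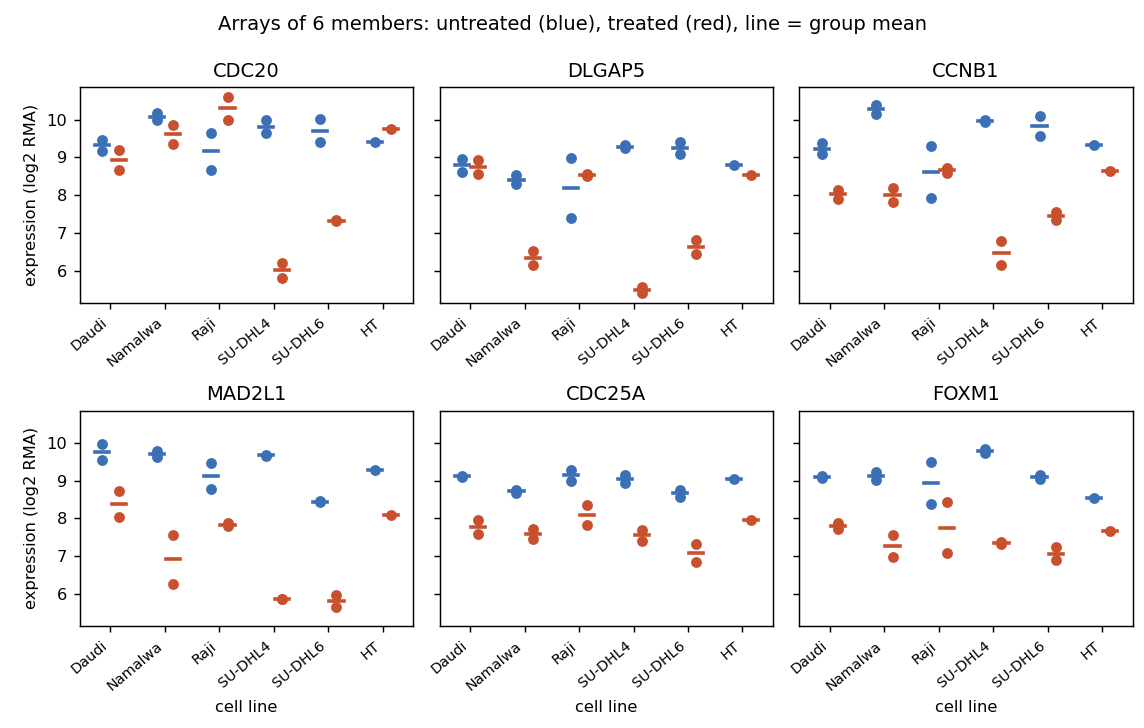
Log2 RMA expression (y axis) of CDC20, DLGAP5, CCNB1, MAD2L1, CDC25A and FOXM1 on every array of the 6 lines (x axis), blue untreated, red treated, short lines the group means. CDC25A moved by -1.05 to -1.59 in the 6 lines and FOXM1 by -0.86 to -2.43, whereas CDC20 moved by -3.81 in SU-DHL4 and by 1.13 in Raji.

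In single lines the members' falls were large in Namalwa, SU-DHL4 and SU-DHL6 and small in Daudi, Raji and HT. In SU-DHL4 59 of 60 members fell (24.1% of all genes were called lower there), with a median of -2.53, that is 5.78-fold lower; 35.6% of all genes were called higher there, and no member. In SU-DHL6 54 fell (16.8% of all genes), with a median of -1.79 or 3.45-fold, and in Namalwa 54 (13.2% of all genes), with -1.68 or 3.21-fold. Daudi had 16 members lower (10.2% of all genes) and a median of -0.46. NUSAP1 alone rose there, by 0.76, while 10.8% of all genes were called higher. In Raji 9 members fell and 1 rose (10.2% of all genes were called lower there and 5.61% higher), and the median was -0.20. In HT, with 1 array per treatment, limma called 0 members at the adjusted threshold (2.51% of all genes were called lower and 2.21% higher) and at an unadjusted p under 0.05 22 were lower and 0 higher, against 9.24% and 9.55% of all genes. The median in HT was -0.66. The labels do not say whether duplicates were separate cultures, so a p-value for 1 line rests on the spread of these arrays alone, and that spread may be technical. The treated Burkitt arrays had been published before, by the series design text, and the labels name no array batch. A difference between that set and other arrays cannot be told apart from treatment in Daudi, Namalwa and Raji.

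The Raji count rested on single arrays. Where no share of all genes stands beside a count below, that count does not compare members with other genes. Without the first untreated array 19 members were lower (7.71% of all genes), 0 higher (3.74%) and the median was -0.69, and without the second 3 were lower, 7 higher and the median was 0.17. Without the first treated Raji array 0 passed (at an unadjusted p under 0.05 7 were lower and 2 higher, against 10.7% and 6.68% of all genes), and without the second 17 were lower. Fitted on the 4 Raji arrays alone 0 passed (at an unadjusted p under 0.05 5 were lower and 0 higher, against 13% and 7.35% of all genes). The 9 members called lower in Raji were CCNA2, CDC25A, PLK4, PBK, BUB3, MAD2L1, CENPM, STMN1 and FOXM1, and without the first untreated array all of them but BUB3 were. Of these 9, all but PLK4 were also called lower in Daudi, and all 9 in Namalwa, SU-DHL4 and SU-DHL6. CDC20 alone was called higher in Raji, by 1.13, a call that was lost without the first untreated array. Daudi's count also moved, to between 6 and 10 without 1 of its own arrays and to 27 when fitted on its 4 arrays alone.

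The treated and untreated arrays did not overlap, with treatment lower, for 60 members in SU-DHL4, 59 in SU-DHL6, 58 in Namalwa, 41 in Daudi and 13 in Raji, against 32.4%, 24.8%, 26.8%, 26.2% and 27.3% of all genes. Against the second untreated Raji array alone, both treated Raji arrays were lower for 49 members and for 38.7% of all genes. In HT the single treated array was lower for 51 members and for 39.5% of all genes, and higher for 9 and for 60.5%. Treated arrays all lay above untreated ones for 10 members in Daudi, 1 in Namalwa, 4 in Raji and 0 in SU-DHL4 and SU-DHL6. The shares of all genes were 37.5%, 34.9%, 28.1%, 52.0% and 39.4%. For CCNA2, CDC25A, AURKB, BUB3, CENPM, KIF18B, STMN1 and HMGB2 all 11 treated arrays lay below all 11 untreated ones, as they did for 4.24% of all genes. The difference was below 0 in all 6 lines for 35 members, against 16.8% of all genes, and without the first untreated Raji array for 40 members and 16.4%. The largest fall was in SU-DHL4 for 52 members, in Namalwa for 4 and in SU-DHL6 for 4. The smallest fall, or the largest rise, was in Raji for 31, in Daudi for 21 and in HT for 8. Without the first untreated Raji array it was in Raji for 14, in Daudi for 31 and in HT for 15. Both Namalwa and the 2 SU-DHL lines had a call for 51 members, of which 42 had none in Raji, or 33 without that array. The SD of a member's difference over the 6 lines ran from 0.22 for CDC25A to 1.83 for CDC20 with a median of 0.95, against a median of 0.32 over all genes. Without that array the same 2 genes stood at the ends, with 0.26 and 1.73.

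The pattern over members was set side by side between lines. Across the 60 genes the differences in SU-DHL4 and SU-DHL6 had a Pearson r of 0.81, and those in SU-DHL6 and Namalwa of 0.77, against 0.80 and 0.67 across all 11963 genes. Raji and SU-DHL4 had 0.17 across the members and 0.54 across all genes, and Raji and HT 0.71 and 0.60. Without the first untreated Raji array these were 0.22 and 0.53 with SU-DHL4, and 0.62 and 0.56 with HT. Genes are not independent replicates, the members share the array and its normalisation, and these values are descriptions.

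**Figure D4:**
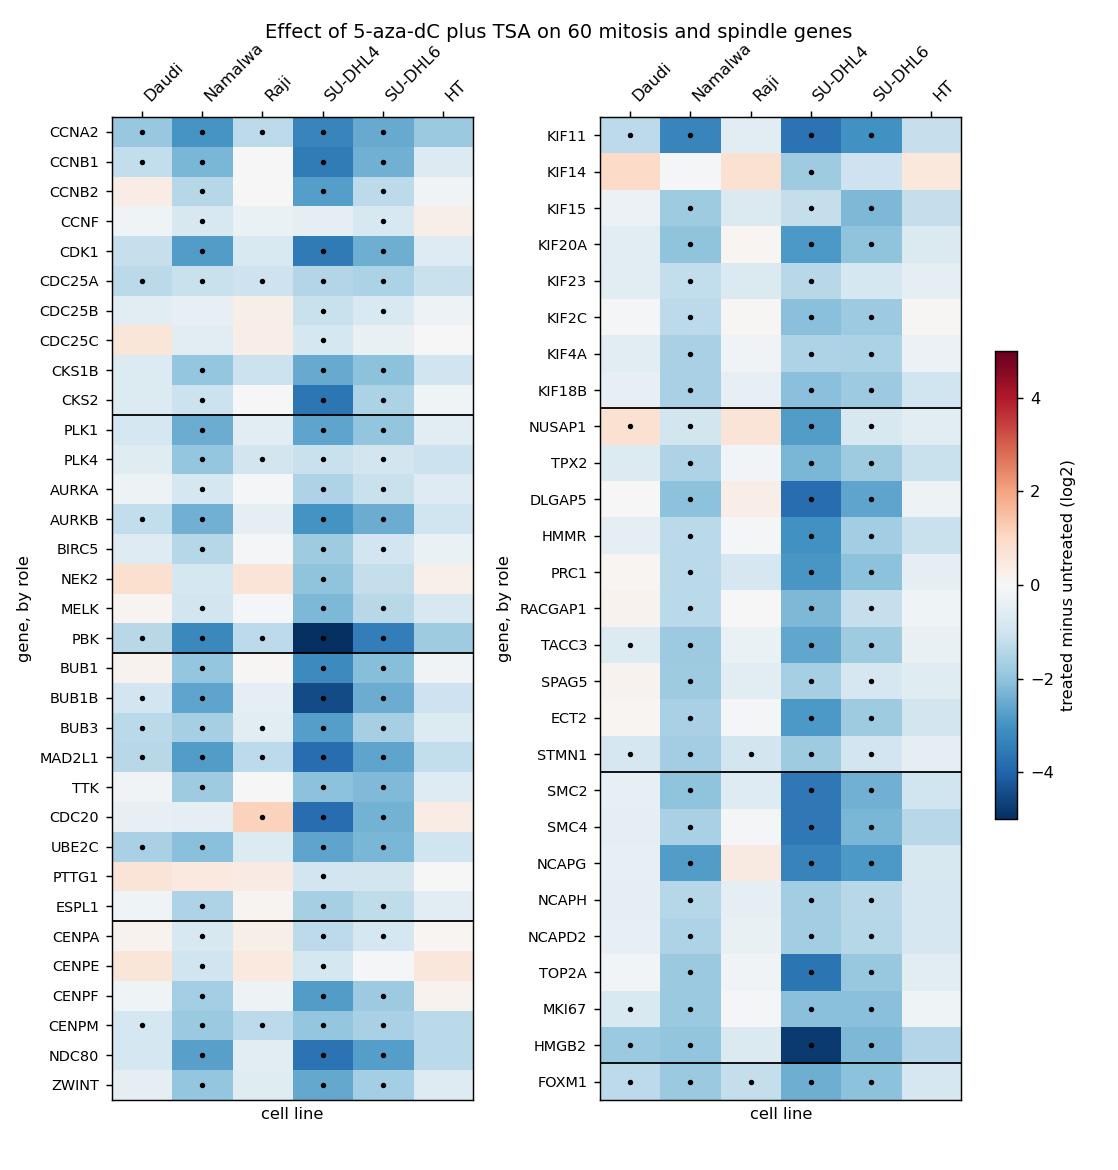
Treated minus untreated difference on the log2 scale (colour, blue lower and red higher) of each of the 60 members (rows, grouped by role with black lines between roles) in each of 6 lines (columns); dots mark differences with limma adjusted p under 0.05. The SU-DHL4, SU-DHL6 and Namalwa columns are blue throughout most roles, while Raji and Daudi hold several pale or red cells, among them CDC20 in Raji and NUSAP1 in Daudi.

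The fall in SU-DHL4 and SU-DHL6 was larger than in Raji for most members. The mean difference of the 2 SU-DHL lines minus that of Raji, tested as an interaction, was called lower for 46 of 60 members and higher for 0 (limma, adjusted p under 0.05), against 6.65% of all genes called lower, 6.28% called higher and a median over all genes of 0.14. The members' median was -1.82. Both SU-DHL lines lay below Raji for 59 members and for 27.6% of all genes, and for 53 and 28.5% without the first untreated Raji array. Arrays and not lines are the units of this test, so it speaks of these 3 lines only. The treated Raji arrays belong to the set published before and the SU-DHL arrays are not named as part of it, so array set and line cannot be told apart on the treated side of this contrast. When the first untreated Raji array was left out 33 members were called lower (4.31% of all genes) and 0 higher (3.23%), and the median was -1.43, and with the second treated SU-DHL6 array also left out 34 and -1.38. SU-DHL4 alone against Raji gave 51 and SU-DHL6 alone 23. Against Daudi in place of Raji the 2 lines gave 46 members and a median of -1.61, and against Namalwa 4 and -0.39. Shares of all genes are not given for these contrasts, so their counts do not show whether members differed more than other genes. Against their own untreated arrays, 24.1% of all genes were called lower in SU-DHL4 and 16.8% in SU-DHL6, and 35.6% and 16.0% higher.

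CDC20 had the most negative difference, -4.23 ± 0.40 (SE; limma adjusted p = 3.18e-05), from a mean of -3.09 in the 2 SU-DHL lines and 1.13 in Raji. Without the first untreated Raji array it was -3.74. NCAPG followed at -3.56 ± 0.29 (adjusted p = 9.15e-06) and DLGAP5 at -3.55 ± 0.44 (adjusted p = 0.000259), and without that array they were -3.30 and -2.76. Of the 49 members with promoter windows 36 had a CHR match, these 3 genes among them. PLK4, CCNF and KIF23, which differed least, had CHR matches too, and a link to the difference was not tested. BUB1B differed by -2.99 ± 0.36, CCNB1 by -2.99 ± 0.42 and PBK by -2.89 ± 0.41, all 3 past the threshold also without that array, at -2.65, -2.30 and -2.46. The 6 genes with the most negative differences belong to the checkpoint, the mitotic cyclins, the kinases, condensin and the spindle. By role the calls were 6 of 10 cyclins and CDK1 partners, 7 of 8 kinases, 8 of 9 checkpoint genes, 4 of 6 kinetochore genes, 6 of 8 kinesins, 8 of 10 other spindle genes and 7 of 8 genes of condensin and chromosome structure. Without the first untreated Raji array they were, in the same order, 3, 3, 7, 3, 5, 6 and 6.

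The 14 members without a call were CCNF, CDC25A, CDC25C, CKS1B, PLK4, PTTG1, CENPE, CENPM, KIF15, KIF23, SPAG5, STMN1, NCAPD2 and FOXM1. The least different was PLK4, at -0.09 ± 0.31 (SE; limma adjusted p = 0.85), then CCNF at -0.29 ± 0.31, KIF23 at -0.41 ± 0.46, STMN1 at -0.45 ± 0.29, CENPM at -0.48 ± 0.34 and CDC25A at -0.49 ± 0.26. A p that misses the threshold does not show that the lines responded alike, and without the first untreated Raji array PLK4, CCNF and KIF23 turned to 0.36, 0.07 and 0.42. FOXM1 itself differed by -1.04 ± 0.46 without passing (adjusted p = 0.137). In promoter windows, CHR matched 31 of 46 windows of the members with a call (67.4%) and 9 of 20 of those without (45%). Counted by gene, these were 28 of 37 and 8 of 12, which lie closer together. With the calls made without that array, CHR matched 21 of 30 windows (70%) and 19 of 36 (52.8%). By gene, these were 20 of 26 and 16 of 23. None of these shares was tested.

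**Figure D5:**
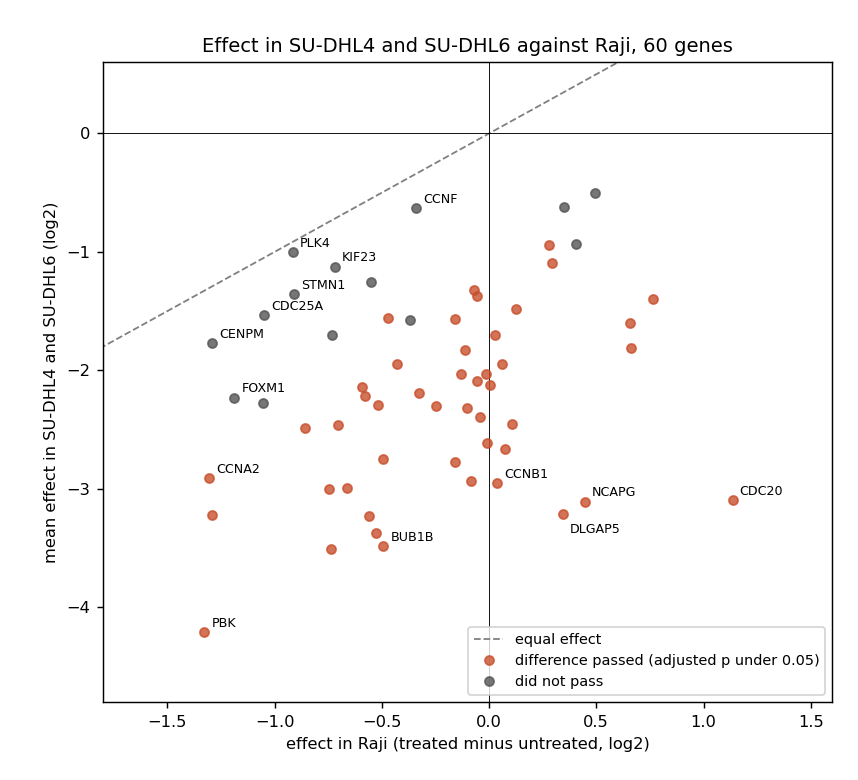
Mean treated minus untreated difference in SU-DHL4 and SU-DHL6 (y axis, log2) against that in Raji (x axis, log2) for the 60 members, red where the difference between them passed (46) and grey where it did not (14); the dashed line marks equal differences. All 60 points lie below the line, PLK4 closest to it and CDC20 farthest; the plot uses all arrays, and without the first untreated Raji array 57 members lay below equality.

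The lines also differed in level. Shares of all genes are given for fits on all arrays only, and the other counts do not compare members with other genes. Before treatment 12 members were higher in SU-DHL4 and SU-DHL6 than in Raji and 0 lower, with a median of 0.47, against 3.68% of all genes called higher and 4.37% called lower. This rested on the first untreated Raji array: without it 2 were higher, 1 was lower and the median was -0.016, and without the second 27 were higher and the median was 0.90. Without the second untreated SU-DHL4 array or the first untreated SU-DHL6 array 7 were higher, and on the arrays of the 3 lines alone 6. After treatment 48 members were lower in the SU-DHL lines than in Raji and 0 higher, with a median of -1.44, against 14.1% of all genes called lower and 21.7% called higher. This contrast uses no untreated array, but it sets treated arrays published before, those of Raji, against others, so array set and line cannot be told apart in it. Without 1 treated Raji array the count was 44 or 36. The largest treated differences were CDC20 at -3.63, BUB1 at -2.90 and DLGAP5 at -2.49 (limma adjusted p = 1.58e-06, 2.57e-07 and 8.63e-05).

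Other genes of the same processes were taken as whole lists, and their shares were not tested against that of the members. Their counts over the 6 lines stand beside 18.3% of all genes called lower and 18.7% called higher, and a median over all genes of 0.12. Of 18 measured of 24 further centromere and kinetochore genes 8 fell and 0 rose, with a median of -0.47. SPC25, a partner of NDC80, fell by 2.15 ± 0.96 and CENPN, which binds the CENPA nucleosome, by 1.12 ± 0.76. Of 25 measured of 29 further spindle, midbody and cytokinesis genes 8 fell and 1 rose, with a median of -0.38. TRIP13, the ATPase that remodels MAD2, fell by 1.81 ± 0.87 and SHCBP1 by 1.67 ± 1.06, while PIMREG rose by 0.60 ± 0.18. Of 11 measured of 17 APC/C genes 4 fell and 0 rose, with a median of -0.20, led by the inhibitor FBXO5 (-1.42 ± 0.76) and the subunit CDC23 (-1.16 ± 0.51).

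Of 11 measured of 14 genes of cohesin, the ring that holds sister chromatids together, 8 fell and 0 rose, with a median of -0.97. STAG2 fell by 2.58 ± 0.62 and SMC1A by 1.67 ± 1.05. Of the other 3 condensin genes 0 passed, with NCAPG2 at -0.80 ± 1.07 and NCAPD3 at -0.30 ± 0.46 (limma adjusted p = 0.108 and 0.181). Of 13 measured of 15 genes of entry into and exit from mitosis 6 fell and 1 rose, with a median of -0.36. WEE1, the kinase that inhibits CDK1, fell by 2.05 ± 0.59 and PPP1CA, a catalytic subunit of protein phosphatase 1, by 1.33 ± 0.40, while CDC14B rose by 0.53 ± 0.36. WEE1 acts against the CDC25 phosphatases, and WEE1 and CDC25A were each below 0 in all 6 lines. Of 16 measured of 20 transcription factors of the MuvB, MYB and E2F families 9 fell and 2 rose, with a median of -0.53. E2F5, an E2F that works with pocket proteins, fell by 2.19 ± 0.51 and MYBL1 by 1.73 ± 0.996, while LIN37, a MuvB subunit, rose by 0.59 ± 0.46.

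The same lists were set between lines, where 6.65% of all genes were called lower and 6.28% higher. For SU-DHL4 and SU-DHL6 against Raji 10 of 25 further spindle genes were called lower with a median of -0.80, 4 of 18 kinetochore genes with -0.34, and 3 of 11 cohesin genes with -1.03. Of 11 APC/C genes 3 were called lower and 1 higher, with a median of -0.09, of 13 genes of entry and exit 2 were lower with -0.13, of the other 3 condensin genes 1 with -0.03, and of 16 transcription factors 2 with -0.47. Without the first untreated Raji array, when 4.31% of all genes were lower and 3.23% higher, the lower calls were 8 for spindle, 3 for kinetochore, 2 for cohesin, 2 for APC/C, 0 for entry and exit, 1 for condensin and 0 for transcription factors, with no gene of these lists higher. The median for cohesin was -1.90 in SU-DHL4 and -0.27 in Raji, or -0.41 in Raji without that array.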

How the data were processed

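Transcript levels were measured on 22 arrays of 6 lines. The authors deposited log2 values computed with RMA, per the series design text, and R 2.10.1 is named in the submitters' processing notes; a table of the authors' p-values and log2 differences was also deposited. Arrays have no read depth, and their number limits the precision. Of 22215 probe sets that are no controls, 19065 had 1 gene symbol, for 11963 genes. Tests, two-sided, from limma 3.58.1 (R 4.3.3) were fitted on all genes with Benjamini-Hochberg adjustment and a threshold of 0.05. The effect over the 6 lines used 12 means, of each line untreated and treated, blocked by line, and single lines and line contrasts all 22 arrays with 12 group means, where HT was assumed to vary like the other lines. Alternatives were other normalisations, probe set rules, prior variances, fits and left-out arrays or lines. The fits were tested on simulated data. The members, gene lists and motifs were chosen with earlier results of these data known. Values of every array were printed for the 2 members per role with the largest mean difference and for MKI67, CCNB1, CDK1, AURKB and FOXM1, and also for CDC20, NCAPG and CDC25A, chosen after their values were seen. The rule also named the members without a call, the 6 most negative and 6 most positive members for SU-DHL4 and SU-DHL6 against Raji, and up to 3 genes per further list.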

Additional observations from a re-analysis of the deposited data

Results flagged for a closer look

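HMGB2 fell by 4.78 on the log2 scale in SU-DHL4, a value that stands apart from those of the other 5 lines, -0.74 to -2.23. Chance sets such a value apart in about 1 in 20 groups, and 61 groups were searched. The control probe sets of ACTB on the second treated SU-DHL6 array had a 3′ minus 5′ value of 2.08, above every untreated array. The first treated SU-DHL6 array, at 0.47, and the treated SU-DHL4 arrays, at 0.07 and 0.28, lay above the untreated arrays of their own lines.

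The differences between SU-DHL4 with SU-DHL6 and Raji, tested as an interaction in limma, passed for 46 of the members. The most negative were CDC20 at -4.23, NCAPG at -3.56, DLGAP5 at -3.55, BUB1B at -2.99, CCNB1 at -2.99 and PBK at -2.89. All 6 also passed without the first untreated Raji array, on which most members read lower than on its duplicate, at -2.30 to -3.74.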

How the results depend on the processing

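Over the 6 lines the number of members called lower was 32 to 54 with another normalisation, probe set rule, prior variance or fit, and 24 to 47 with 1 array or line left out, with 28 without Namalwa and 24 without SU-DHL6; it was 4 in the Burkitt lines alone and 26 in the DLBCL lines alone. PTTG1 turned to 0.51 in the Burkitt lines alone. Fitted on the arrays of the line alone, Daudi had 27 members lower and Raji 0 (5 at an unadjusted p under 0.05 in limma); Raji had 5 after quantile normalisation. HT had 3 after median centring, 1 after cyclic loess, 2 with dim genes left out or a trend in the prior variance, and 4 with all probe sets averaged. With 1 array left out the counts ran from 6 to 19 in Daudi, 44 to 55 in Namalwa, 0 to 19 in Raji, 54 to 59 in SU-DHL4, 46 to 57 in SU-DHL6 and 0 to 4 in HT. For SU-DHL4 and SU-DHL6 against Raji they ran from 33 to 54, among untreated arrays from 2 to 27 higher, and among treated arrays from 36 to 51 lower. SU-DHL6 alone against Raji gave 23, the 2 lines against Namalwa 4, and the untreated comparison on the arrays of its 3 lines 6 higher. The members' median in Raji was -0.69 without the first untreated array and 0.17 without the second, and that of the untreated comparison -0.016 and 0.90. Why these values moved was not tested. Some fits over the 6 lines took arrays and not line means as units. Shares of all genes are not given in this section, so its counts do not compare members with other genes.

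Replicate numbers do not pair the samples: deviations of same-numbered arrays correlated at -0.12 in Daudi, -0.11 in Namalwa, 0.03 in Raji, 0.00 in SU-DHL4 and -0.07 in SU-DHL6. Over the 6 lines the fit with a replicate block takes arrays, not line means, as units, so its count does not show pairing alone. With the replicate block 52 members were lower over the 6 lines, 18 in Daudi, 49 in Namalwa, 14 in Raji, 58 in SU-DHL4, 53 in SU-DHL6, 5 in HT and 47 for SU-DHL4 and SU-DHL6 against Raji. The crossed pairing, added after seeing the data, gave 18 in Daudi and 50 in Namalwa.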
